A study of Mus musculus with 3 samples.

Results

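The circadian clock genes described here are 10 gene models of mouse NB490 pancreatic cancer cells: Bhlhe40, Bhlhe41, Per1, Per2, Cry1, Cry2, Arntl, Clock, Nr1d1 and Nr1d2. They were taken by gene symbol from 22658 deposited models, and each symbol matched 1 model. The group was put together around Bhlhe40, whose lower level under doxycycline was already known from these libraries, so its values and those of the other members in these contrasts are a description and carry no test. Bru-seq measures newly made RNA: bromouridine enters RNA during transcription, here over 30 min at 2 mM in conditioned medium per the labels' protocols, and an antibody pulls down what was labelled for sequencing. All cells were of the NB490 line carrying a doxycycline-inducible PDX1 shRNA, selected with puromycin and kept in medium with serum. The 3 libraries came from uninduced cells (0 h of doxycycline), cells given doxycycline for 48 h, and cells grown out under the drug over more than 3 weeks. There was 1 library per condition, and doxycycline on cells lacking the hairpin was not analysed here. No replicate check exists for any difference below, and condition and library cannot be told apart. The labels give neither the hour of labelling nor the time since the last medium change, so a difference in clock phase and a difference in condition cannot be told apart either.

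The circadian clock is a feedback loop of transcription that runs in most mammalian cells. CLOCK and BMAL1, the product of Arntl, pair and switch on genes through E-boxes, among them the Per and Cry genes, whose proteins return to block the pair. BHLHE40 and BHLHE41, also known as DEC1 and DEC2, bind E-boxes as repressors, and Bhlhe40 additionally responds to serum, hypoxia and other signals. The nuclear receptors REV-ERB alpha and beta, encoded by Nr1d1 and Nr1d2, repress Arntl and Clock and tie the loops together.

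The level used is the deposited RPKM, a read count divided by model length and by library size, which allows levels of different genes to be compared per length. The library totals implied by the deposited counts and RPKM were 51006774 reads uninduced, 48418864 at 48 h and 41632296 grown out. The 10 members held between 0.0569% and 0.0628% of the reads in gene models. Nascent RNA of Pdx1, the shRNA target, had 1.59 RPKM uninduced, 1.05 RPKM at 48 h and 1.41 RPKM grown out, so it was 1.51-fold lower at 48 h (1.28 to 1.77) and 1.12-fold lower in grown-out cells with an interval that reached past no change (0.961 to 1.30). Since the hairpin targets mature transcripts, nascent reads do not measure the depth of the knockdown. Epithelial and duct markers fixed for the check were present: 7 of 9 reached the expression minimum, with a summed level of 146, 80.0 and 76.4 RPKM in the same order, of which Spp1 gave 98.6, 40.0 and 32.3 RPKM. No acinar, endocrine, fibroblast or endothelial marker of 8, 8, 8 and 6 reached it, and their summed levels stayed between 0.0811 and 0.105, 0.149 and 0.234, 0.0534 and 0.0891, and 0.213 and 0.226 RPKM. Ins1, Ins2, Gcg, Cpa1, Pnlip, Acta2 and Lum were listed at 0 in all 3 libraries. Immune markers summed to 2.42, 1.37 and 1.37 RPKM, nearly all from Cd14 and Cd68, with Ptprc at or below 0.000367 RPKM. The part of the shifting duct and immune marker sums in the clock gene values was not tested. In a whole culture, fewer cells transcribing a gene and less transcription per cell cannot be told apart.

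Promoter windows of 300 bases, from 250 before to 50 after a RefSeq start in build GRCm38.p6, were found for 8 of the 10 members, 12 windows in all; Bhlhe40 and Per2 did not match and were not searched. Each was searched on both strands for the E-box CACGTG, the E-box variant CACGTT, the REV-ERB and ROR element TAGGTCA, the D-box TTATGTAA and the cyclic AMP element TGACGTCA. The E-box stood in 3 of the 12 windows and in 7.15% of all 32851 windows, and the variant in 3 of 12 against 4.68%. The element TAGGTCA stood in 1 of 12 against 2.61%, while the D-box (0.938% of all windows) and the cyclic AMP element (1.79%) had 0 matches. Such a match is a description of the letters and no evidence of binding. The windows with a match to the clock's own elements in members described below are shown, one for each such gene but Cry2, with the matched letters in capitals and no base shared between matches. They lie at chr10:85185005-85185304 (minus strand) for Cry1, chr11:69098699-69098998 (plus) for Per1, chr6:145865371-145865670 (minus) for Bhlhe41, chr11:98775328-98775627 (minus) for Nr1d1 and chr7:113207261-113207560 (plus) for the second window of Arntl.
Cry1: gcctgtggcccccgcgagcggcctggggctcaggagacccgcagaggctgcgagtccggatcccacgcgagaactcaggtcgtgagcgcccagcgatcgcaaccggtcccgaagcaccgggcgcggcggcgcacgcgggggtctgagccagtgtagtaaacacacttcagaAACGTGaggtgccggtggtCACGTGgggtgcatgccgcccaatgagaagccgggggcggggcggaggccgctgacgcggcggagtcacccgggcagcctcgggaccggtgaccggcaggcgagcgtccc
Per1: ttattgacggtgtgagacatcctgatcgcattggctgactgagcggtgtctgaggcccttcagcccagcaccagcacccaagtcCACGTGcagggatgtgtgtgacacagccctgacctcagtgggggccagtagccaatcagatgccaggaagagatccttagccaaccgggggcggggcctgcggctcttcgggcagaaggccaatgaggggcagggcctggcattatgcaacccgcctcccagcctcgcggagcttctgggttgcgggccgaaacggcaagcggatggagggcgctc
Bhlhe41: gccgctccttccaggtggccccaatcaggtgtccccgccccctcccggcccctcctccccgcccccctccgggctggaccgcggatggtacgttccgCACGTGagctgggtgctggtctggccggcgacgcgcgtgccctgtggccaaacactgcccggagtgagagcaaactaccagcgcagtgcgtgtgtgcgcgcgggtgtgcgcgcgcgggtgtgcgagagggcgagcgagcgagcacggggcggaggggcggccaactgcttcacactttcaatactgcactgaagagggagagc
Nr1d1: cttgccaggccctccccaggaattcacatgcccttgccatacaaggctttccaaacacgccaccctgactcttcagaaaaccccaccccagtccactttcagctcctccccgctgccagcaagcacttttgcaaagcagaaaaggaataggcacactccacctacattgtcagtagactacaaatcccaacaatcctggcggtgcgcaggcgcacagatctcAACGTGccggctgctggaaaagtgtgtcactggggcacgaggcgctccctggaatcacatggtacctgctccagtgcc
Arntl: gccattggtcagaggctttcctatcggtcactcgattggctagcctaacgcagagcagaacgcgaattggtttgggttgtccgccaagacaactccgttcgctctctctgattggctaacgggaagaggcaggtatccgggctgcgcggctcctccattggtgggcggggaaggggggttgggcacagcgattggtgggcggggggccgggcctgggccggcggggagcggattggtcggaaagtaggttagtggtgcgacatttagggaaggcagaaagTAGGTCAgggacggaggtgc
Counting the start base as 0, the E-box began at -60 in Cry1, -166 in Per1 and -153 in Bhlhe41. The variant began at -79 in Cry1, -28 in Nr1d1 and -166 in Cry2, and TAGGTCA at 30 in Arntl. Cry1 was the only one of the windows searched that held both an E-box and its variant.

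Bhlhe40 stood out among the clock genes as the most transcribed in uninduced cells and the one that lay furthest below that level under doxycycline. Its model covers 6297 bp on the plus strand of chromosome 6, from 108610623 to 108616919 in the coordinates of the files. Uninduced cells gave 5.97 RPKM (95% Poisson interval 5.71 to 6.25, from 1918.8 reads), cells at 48 h 2.40 RPKM (2.23 to 2.58, 731 reads) and grown-out cells 2.74 RPKM (2.54 to 2.95, 717.6 reads). The uninduced library was the high one, and neither doxycycline library overlapped its counting interval. At 48 h Bhlhe40 was 2.49-fold lower than in uninduced cells (95% exact conditional binomial interval 2.29 to 2.72), and in grown-out cells 2.18-fold lower (2.00 to 2.38). These intervals, like all others below, cover counting error only, and reads without molecular identifiers may make them too narrow. On the log2 scale with a pseudocount of 0.05 RPKM the ratios were -1.30 and -1.11. Of 7915 measured genes, meaning models of at least 300 bp with a mean RPKM of at least 0.5, only 23 had a lower ratio at 48 h and 40 in grown-out cells. The grown-out level was 1.14-fold above that at 48 h (1.03 to 1.27). The genes beside it on the same strand stayed nearer their uninduced level. To the right, Arl8b, 116133 bp away, had 3.57 RPKM uninduced, 3.67 RPKM at 48 h and 3.80 RPKM grown out, and Edem1 had 1.61, 1.52 and 1.68 RPKM. To the left, Itpr1, below the expression minimum, had 0.470, 0.519 and 0.403 RPKM. An antisense model that overlaps Bhlhe40 by 306 bp, 0610040F04Rik, was at or below 0.0393 RPKM.

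**Figure D1:**
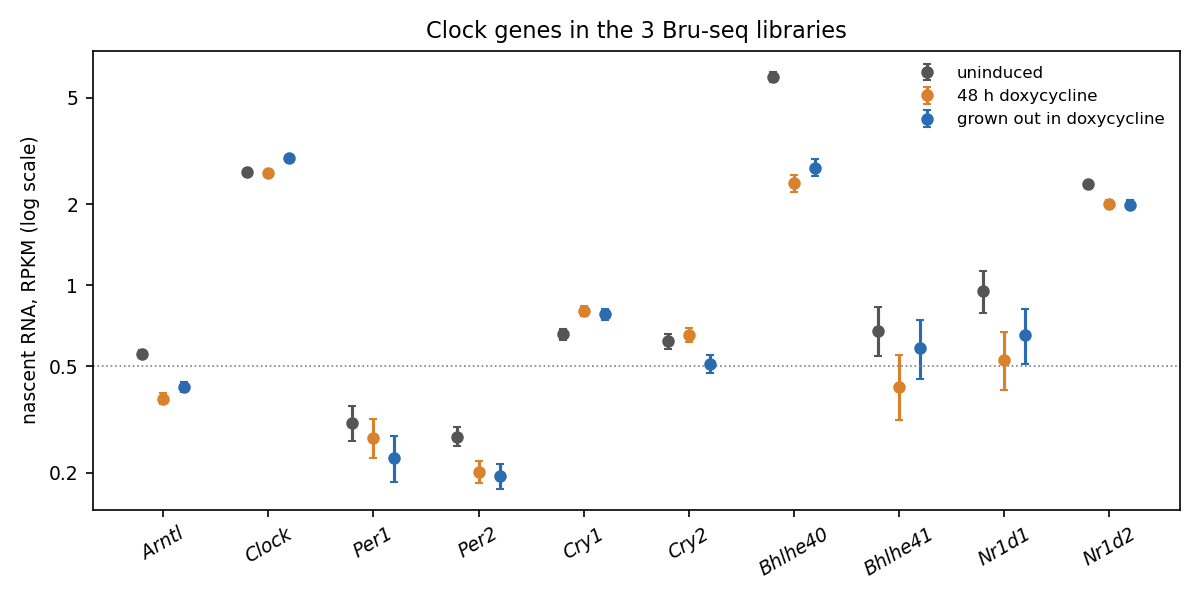
Nascent RNA level of each clock gene, in RPKM on a log axis, in the uninduced, 48 h and grown-out library (1 library each); bars are 95% Poisson intervals and the dotted line is the expression minimum of 0.5 RPKM. Bhlhe40 sits at 5.97 RPKM in uninduced cells and at 2.40 and 2.74 RPKM under doxycycline, while Clock stays between 2.62 and 2.97 RPKM.

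Bhlhe41, the close relative of Bhlhe40, was transcribed at a far lower level and was lower at 48 h. Its model, 2604 bp on the minus strand of chromosome 6 (145811257 to 145813860), had 0.678 RPKM in uninduced cells, 0.416 RPKM at 48 h and 0.582 RPKM in grown-out cells. It rests on 90.1, 52.5 and 63.1 reads, the fewest of the members. At 48 h it was 1.63-fold lower (1.14 to 2.31). In grown-out cells it was 1.17-fold lower, and the interval spanned no change (0.836 to 1.64). Bhlhe40 lay further below its uninduced level than Bhlhe41, by 0.61 on the log2 scale of read ratios at 48 h (interval of the difference in log2 ratio -1.12 to -0.11) and by 0.91 in grown-out cells (-1.39 to -0.42).

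The period genes encode the repressor proteins whose rise and fall sets the length of the cycle, and both were little transcribed. Per1 (chromosome 11, 68912458 to 68923459, plus strand) had 0.306 RPKM uninduced, 0.269 RPKM at 48 h and 0.227 RPKM grown out, from 172, 143.5 and 104 reads. It was 1.14-fold lower at 48 h, where the interval spanned no change (0.903 to 1.42), and 1.35-fold lower grown out (1.05 to 1.74). Per2 (chromosome 1, 93312559 to 93355905, minus strand) had 0.273, 0.202 and 0.194 RPKM, from 604, 424 and 351 reads. It was 1.35-fold lower at 48 h (1.19 to 1.53) and 1.40-fold lower in grown-out cells (1.23 to 1.61). Both lay under the expression minimum, as did Arntl, so they are described but not among the measured members. Their log2 ratios differed from each other by 0.25 at 48 h (-0.12 to 0.62) and by 0.06 in grown-out cells (-0.34 to 0.46), differences that counting error covers.

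The cryptochrome genes encode the partners of the period proteins, and Cry1 took the opposite direction to most of the group. Cry1 (chromosome 10, 84594445 to 84647799, minus strand) had 0.656 RPKM in uninduced cells, 0.802 RPKM at 48 h and 0.778 RPKM in grown-out cells. Here the uninduced library was the low one. Cry1 was 1.22-fold higher at 48 h (1.15 to 1.30) and 1.19-fold higher in grown-out cells (1.11 to 1.27). Cry2 (chromosome 2, 92243804 to 92274226, minus strand) had 0.619 RPKM uninduced, 0.653 RPKM at 48 h and 0.509 RPKM grown out. At 48 h its ratio of 1.05 had an interval that included no change (0.963 to 1.15), and in grown-out cells it was 1.22-fold lower (1.10 to 1.35). A model on the opposite strand that overlaps Cry2 by 23417 bp, D930015M05Rik, was listed at 0, 0.000882 and 0 RPKM, so reads of the Cry2 span were not counted for it. The log2 ratio of Cry1 exceeded that of Cry2 by 0.21 at 48 h (0.06 to 0.37) and by 0.53 in grown-out cells (0.36 to 0.70).

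Of the activating pair, Arntl was lower under doxycycline and Clock was not. Arntl (chromosome 7, 120350979 to 120457640, plus strand) had 0.555 RPKM in uninduced cells, 0.378 RPKM at 48 h and 0.418 RPKM in grown-out cells. Because its model is 106662 bp long, these low levels rest on 3018.1, 1953 and 1858.1 reads. Arntl was 1.47-fold lower at 48 h (1.39 to 1.55) and 1.33-fold lower in grown-out cells (1.25 to 1.41). Clock (chromosome 5, 76641202 to 76733573, minus strand) had 2.64 RPKM uninduced, 2.62 RPKM at 48 h and 2.97 RPKM grown out and was the most deeply counted member, with 12437.7, 11709.6 and 11428.6 reads. Its ratio to uninduced cells was 0.992 at 48 h (0.967 to 1.02), while grown-out cells had 1.13 (1.10 to 1.15). The log2 ratio of Arntl lay below that of Clock by 0.54 at 48 h (-0.63 to -0.45) and by 0.58 in grown-out cells (-0.67 to -0.49).

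Both REV-ERB genes were lower under doxycycline. Nr1d1 (chromosome 11, 98629249 to 98636556, minus strand) had 0.949 RPKM in uninduced cells, 0.526 RPKM at 48 h and 0.653 RPKM in grown-out cells. It was counted over 2627 of its 7308 bp and rests on 127.1, 66.8 and 71.4 reads. It was 1.81-fold lower at 48 h (1.33 to 2.46) and 1.45-fold lower in grown-out cells (1.08 to 1.98). Thra, the convergent neighbour 2823 bp from Nr1d1 on the other strand, had 0.714, 0.573 and 0.717 RPKM. Nr1d2 (chromosome 14, 19036570 to 19071620, minus strand) had 2.38 RPKM uninduced, 2.01 RPKM at 48 h and 2.00 RPKM grown out and was 1.19-fold lower in both, with intervals of 1.13 to 1.24 at 48 h and 1.14 to 1.25 grown out. Nr1d1 lay further below its uninduced level than Nr1d2 at 48 h, by 0.61 on the log2 scale (-1.04 to -0.17), while in grown-out cells the difference of 0.29 was covered by counting error (-0.71 to 0.14).

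**Figure D2:**
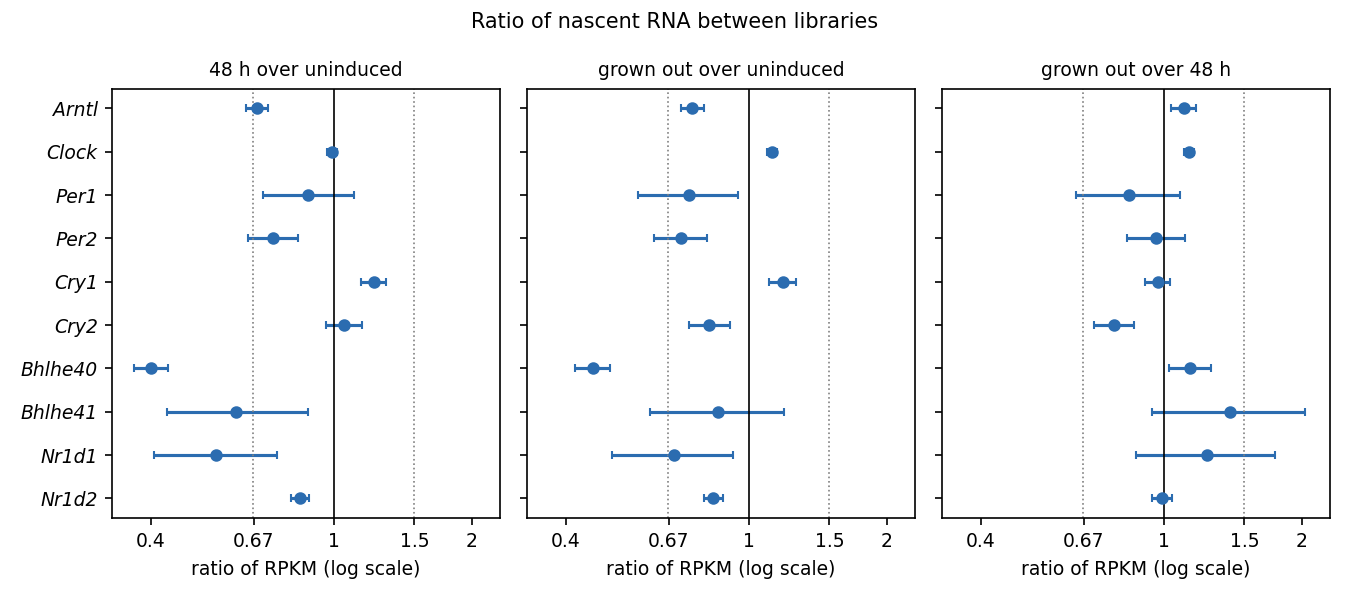
Ratio of RPKM between 2 libraries for each clock gene, on a log axis, with 95% exact conditional binomial intervals; the solid line marks no change and the dotted lines a 1.5-fold difference. Against uninduced cells, Bhlhe40 is farthest to the left at both times, and Cry1 lies to the right of no change at 1.22 and 1.19.

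Read against all genes, the members counted as follows. Of the 10 members, 7 were measured, with Per1, Per2 and Arntl below the minimum. A call past 1.5-fold or 2-fold needs both a log2 ratio of at least that size and an interval clear of no change. At 48 h, 3 of the 7 were past 1.5-fold lower than uninduced, namely Bhlhe40, Nr1d1 and Bhlhe41, where 3.27% of 7915 measured genes were, and 0 were higher, where 0.379% were. In grown-out cells 1 of the 7, Bhlhe40, was past 1.5-fold lower, where 2.93% of measured genes were, and 0 were higher, where 1.07% were. Bhlhe40 was also the 1 member past 2-fold lower in each comparison, where 0.72% and 0.708% of measured genes were, and 0 were past 2-fold higher, where 0.0253% and 0.164% were. By the looser call of an interval that excluded no change, 4 of the 7 were lower and 1 higher at 48 h, where 30% and 30.1% of measured genes were. In grown-out cells 4 were lower and 2 higher, where 29.5% and 33.6% were. The group was chosen with these contrasts known, so these shares describe it and nothing is read from them. The median log2 ratio of the 7 measured members was -0.24 at 48 h and -0.25 in grown-out cells, against medians of 0.00 and 0.01 over all measured genes. Over all 10 members the medians were -0.30 and -0.31. Both comparisons use the same uninduced library. Reference genes give a yardstick for the small differences: Polr2a was 1.21-fold and 1.20-fold lower at 48 h and in grown-out cells, Actb 1.21-fold higher in grown-out cells and B2m 1.20-fold lower there. The differences of Cry1, Cry2, Nr1d2 and Clock are of that size, and those of Bhlhe40 are larger.

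**Figure D3:**
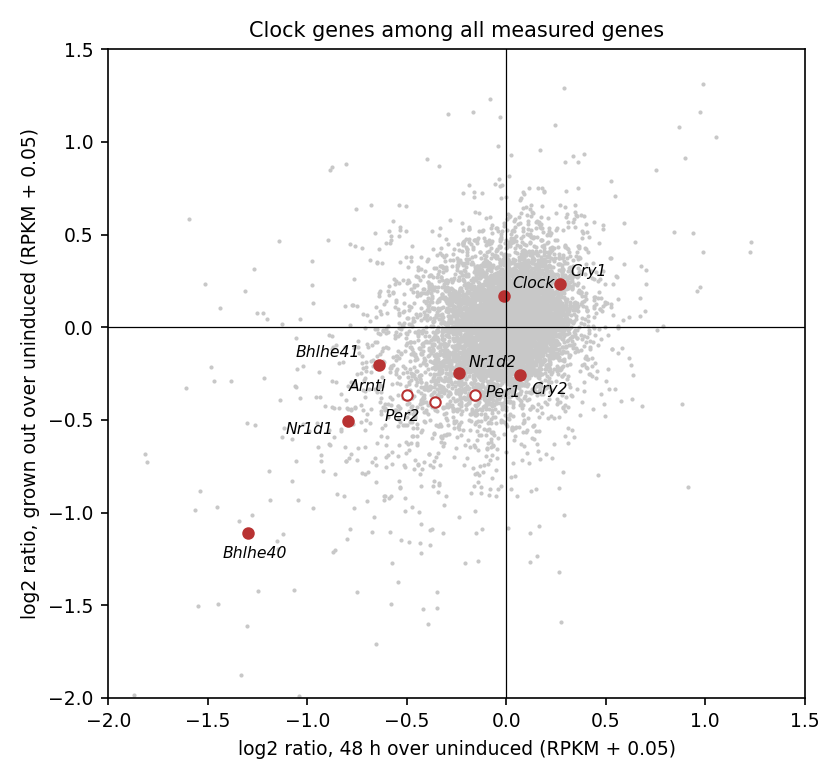
Log2 ratio of RPKM plus 0.05 for 48 h over uninduced (horizontal) and grown out over uninduced (vertical) for all 7915 measured genes (grey; 10 lie outside the axes) and the clock genes (red; open circles are below the expression minimum). Both axes share the uninduced library; Bhlhe40 lies at -1.30 and -1.11, away from the bulk of genes.

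Bhlhe40 held the first place among the levels in uninduced cells and the second, after Clock, in both doxycycline libraries, and several lower members also changed places. In uninduced cells it ran Bhlhe40, Clock, Nr1d2, Nr1d1, Bhlhe41, Cry1, Cry2, Arntl, Per1, Per2, and Bhlhe40 exceeded Clock 2.26-fold per length (2.16 to 2.37). Bhlhe41 and Cry1, Cry1 and Cry2, and Per1 and Per2 did not differ beyond counting error there. At 48 h the order was Clock, Bhlhe40, Nr1d2, Cry1, Cry2, Nr1d1, Bhlhe41, Arntl, Per1, Per2, with the run from Cry2 to Arntl not resolved between neighbours. In grown-out cells it was Clock, Bhlhe40, Nr1d2, Cry1, Nr1d1, Bhlhe41, Cry2, Arntl, Per1, Per2, with the neighbours from Cry1 to Cry2 and the last pair not resolved. Clock, Bhlhe40 and Nr1d2 were thus the 3 highest in each library and Per2 the lowest. Bhlhe40 made up 39.7% of the summed RPKM of the 10 members in uninduced cells, 23.3% at 48 h and 24.7% in grown-out cells. The sum over the other 9 members was 9.06, 7.88 and 8.33 RPKM in the same order.

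Ratios of 2 members within a library do not depend on how the libraries were scaled against each other. Bhlhe40 over Bhlhe41 was 8.81 uninduced (7.14 to 11.0), 5.76 at 48 h (4.31 to 7.69) and 4.70 grown out (3.64 to 6.20). Clock over Arntl was 4.76 (4.57 to 4.95), 6.92 (6.60 to 7.27) and 7.10 (6.76 to 7.46), so the uninduced library was the low one and the intervals of the doxycycline libraries overlapped each other. Cry1 over Per2, both repressors of the CLOCK and BMAL1 pair, was 2.40 (2.19 to 2.64), 3.97 (3.57 to 4.42) and 4.002 (3.57 to 4.50), with the same pattern. Cry1 over Cry2 was 1.06 (0.979 to 1.15), 1.23 (1.14 to 1.33) and 1.53 (1.40 to 1.68). Nr1d2 over Nr1d1 was 2.51 (2.11 to 3.02), 3.83 (3.00 to 4.94) and 3.06 (2.43 to 3.95). These intervals overlapped, although the log2 ratios of Nr1d1 and Nr1d2 at 48 h against uninduced differed beyond counting error (-1.04 to -0.17).

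**Figure D4:**
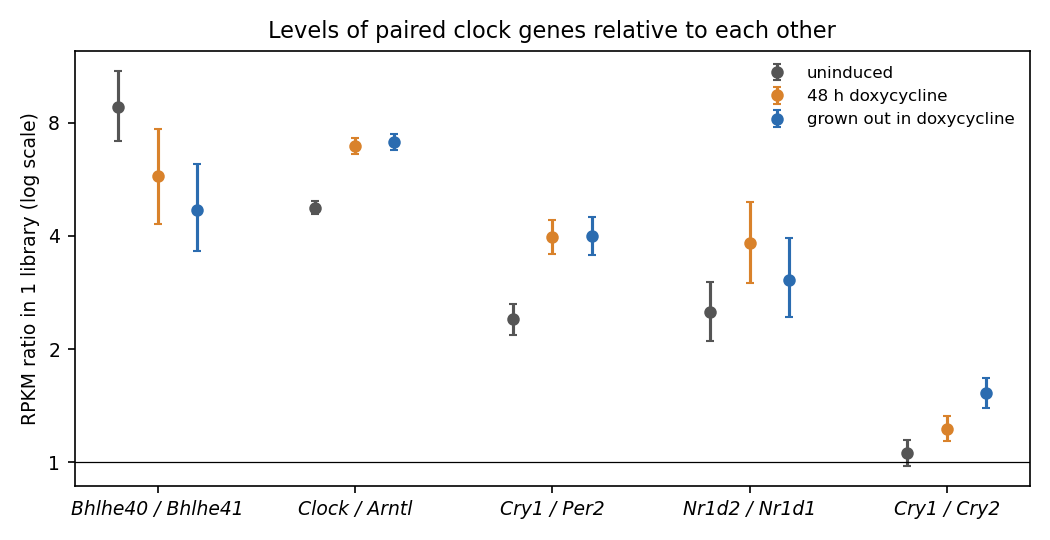
RPKM of 1 clock gene divided by that of its named partner within the same library, on a log axis, for the uninduced, 48 h and grown-out library; bars are 95% exact conditional binomial intervals. Clock over Arntl and Cry1 over Per2 are lower in uninduced cells, at 4.76 and 2.40, than in either doxycycline library.

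Between the doxycycline libraries the clock genes differed little. Of the 7 measured members, 0 were past 1.5-fold in grown-out cells against 48 h, where 3.59% of measured genes were higher and 2.25% lower, and 0 were past 2-fold, where 0.708% were higher and 0.316% lower. With shares this small, 0 of 7 is nothing particular to the members. By the interval alone 2 of the 7 were higher and 1 lower, where 35.6% and 32% of measured genes were. Bhlhe40 and Clock were 1.14-fold higher in grown-out cells (1.03 to 1.27 and 1.11 to 1.16), and Arntl 1.11-fold higher (1.04 to 1.18). Cry2 was 1.28-fold lower (1.16 to 1.42). For the other 6 members the interval included no change, with the widest that of Bhlhe41 at a ratio of 1.40 (0.944 to 2.03).

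Few genes had ratios close to those of Bhlhe40 across the 3 libraries. Likeness was measured as the distance between 2 genes' pairs of log2 ratios against uninduced cells, over 7295 other measured genes with a symbol that is no clone or small RNA name. Within a distance of 0.25 there were 5 genes: Fgfbp1 at 0.08, Ddit4 at 0.15, the model named Lgals at 0.17, Atf3 at 0.18 and Insig1 at 0.21. Ddit4 encodes an inhibitor of mTORC1, Atf3 a stress-induced transcription factor and Insig1 a sterol sensor partner. Insig1 had 9.86, 4.30 and 5.13 RPKM and Fgfbp1, which encodes an FGF-binding protein, 1.25, 0.462 and 0.579 RPKM, each given as uninduced, 48 h, grown out. The pattern of Nr1d1 was shared by 78 genes within that distance, the nearest being Paqr8 at 0.03, Ccdc68 at 0.05, Marcks at 0.06, Cebpb at 0.06 and Jup at 0.06. That of Per1 was shared by 951 genes, led by Hhex, Cask, Nkap, Morf4l2 and Trappc1 within 0.03. The number of genes within a fixed distance depends on how many genes have ratios of that size at all. Bhlhe40 lay away from the bulk of genes, so its small number is no sign of a particular pattern. With 3 libraries, such likeness describes the values and no more.

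The wider clock network was looked at through lists of genes grouped by role. Among activators related to the CLOCK pair, Npas2, which can stand in for Clock, was all but silent, with 10 reads uninduced, 2 at 48 h and 1 grown out. Arntl2, the relative of Arntl, had 0.220, 0.225 and 0.601 RPKM, 2.73-fold higher in grown-out cells than uninduced (2.38 to 3.13) and level at 48 h (ratio 1.02, 0.868 to 1.20). It lies below the expression minimum and was singled out after its values were seen. Per3, the third period gene, had 0.442, 0.306 and 0.334 RPKM and was 1.45-fold lower at 48 h (1.30 to 1.61) and 1.32-fold lower in grown-out cells (1.19 to 1.47). Ciart, which encodes another repressor of the pair and is named Gm129 in the files, had 0.495, 0.455 and 0.471 RPKM. Of the ROR receptor genes, whose products oppose REV-ERB at shared elements, Rora was at most 0.00239 RPKM and Rorb at most 0.241 RPKM. Of the PAR bZIP factors and their opponent, Dbp, an E-box target, had 0.166, 0.125 and 0.0727 RPKM and was 2.29-fold lower in grown-out cells on 15 reads grown out and 42 uninduced (1.24 to 4.44). Tef had 0.677, 0.816 and 0.701 RPKM and Nfil3, which represses D-box genes, 0.984, 0.765 and 1.21 RPKM. Hlf was near 0.

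Of the measured kinase, ligase and cofactor genes of the clock, 0 were past 1.5-fold against uninduced cells. The list of kinase, phosphatase and ubiquitin ligase genes also holds Sirt1 and Usp2, which are of other classes. Of its 17 measured genes, 9 were higher and 4 lower at 48 h by the counting interval, where 30.1% and 30% of all measured genes were. In grown-out cells 8 were higher and 4 lower, where 33.6% and 29.5% were. In either comparison 0 of the 17 were past 1.5-fold, where 0.379% of measured genes were higher and 3.27% lower at 48 h and 1.07% and 2.93% grown out. Their median log2 ratios were 0.09 and 0.10. Cul1, a ligase scaffold, was 1.19-fold higher at 48 h. Csnk1e, which encodes a casein kinase that marks period proteins for decay, was 1.20-fold lower in grown-out cells. Csnk1d, another casein kinase gene of the list, had log2 ratios of 0.05 at 48 h and 0.04 in grown-out cells. Btrc and Fbxw11 encode the receptors for the marked period proteins. They had 1.90 against 1.55 RPKM and 4.03 against 3.77 RPKM at 48 h against uninduced, and 1.36 and 3.14 RPKM in grown-out cells. Of 14 measured complex partners, 7 were higher and 2 lower at 48 h and 8 higher and 3 lower in grown-out cells, beside the same shares of all genes, again with 0 past 1.5-fold and medians of 0.07 and 0.12. Timeless was 1.28-fold and Tipin 1.23-fold higher in grown-out cells, and Prkca 1.26-fold lower at 48 h. For genes under clock control in other tissues, 8 of 9 measured were lower and 1 higher at 48 h by the interval, where 30% and 30.1% of all measured genes were, and 3 were past 1.5-fold lower, where 3.27% were. In grown-out cells 2 were lower and 2 higher, where 29.5% and 33.6% were. Klf10 was 2.37-fold (2.16 to 2.60), Lgals9 1.54-fold (1.11 to 2.12) and Klf9 1.53-fold (1.48 to 1.58) lower at 48 h. In grown-out cells Klf10 and Klf9 were at 1.05 and 0.979 of the uninduced level, and Lgals9 had 0.652 RPKM against 1.28 RPKM uninduced. Cdkn1b, a cell cycle inhibitor gene, was 1.33-fold lower at 48 h and had 11.5 against 11.1 RPKM in grown-out against uninduced cells.

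**Figure D5:**
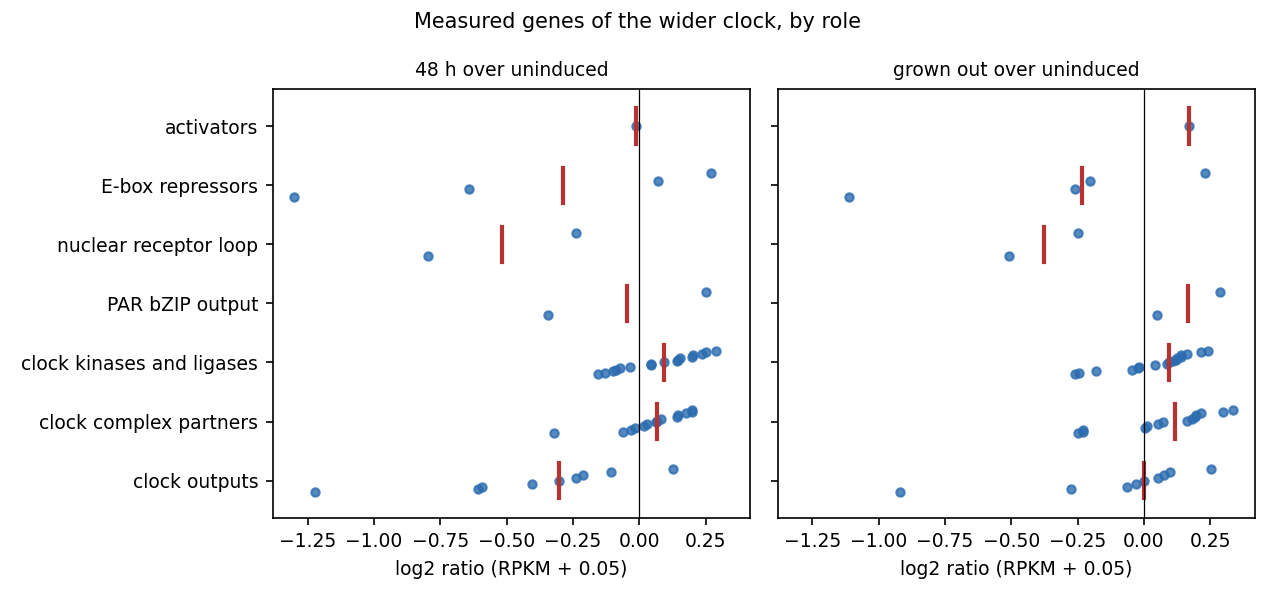
Log2 ratio of RPKM plus 0.05 against uninduced cells for each measured gene of the wider clock lists, at 48 h (left) and grown out (right); points are genes, 1 library per condition, and red bars are list medians. Kinases, ligases and complex partners have medians between 0.07 and 0.12, while the leftmost repressor point is Bhlhe40 at -1.30 and -1.11.

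Among genes that feed signals into the clock, Egr1, Junb, Dusp1 and Sik1 were lower in both doxycycline libraries, while others of the list were higher. Of 13 measured genes of the serum, cyclic AMP and glucocorticoid input list, 7 were lower and 5 higher at 48 h by the interval, where 30% and 30.1% of all measured genes were, and 7 lower and 4 higher in grown-out cells, where 29.5% and 33.6% were. The list's median log2 ratios were -0.10 and -0.05. The serum-induced transcription factor genes led it: Egr1 had 8.81, 2.52 and 1.27 RPKM and Junb 4.93, 1.66 and 2.65 RPKM, each given as uninduced, 48 h, grown out. Dusp1, which encodes a MAP kinase phosphatase, was 1.58-fold and 1.55-fold lower at 48 h and in grown-out cells. Sik1, a cyclic AMP-induced kinase gene that restrains light input to the clock in mice, was 1.49-fold and 1.36-fold lower. Creb1 itself was at 2.91, 2.90 and 3.41 RPKM. Of 14 measured hypoxia targets, 10 were lower and 0 higher at 48 h by the interval (30% and 30.1% of all measured genes), and 7 lower and 3 higher in grown-out cells (29.5% and 33.6%), with medians of -0.29 and -0.09. Ddit4 was 2.31-fold and 2.32-fold lower in the same order, Mxi1 1.31-fold and 1.84-fold lower and Ndrg1 had 0.756 and 0.943 RPKM against 1.13 RPKM uninduced. Egln3 was 1.46-fold lower at 48 h and 1.47-fold higher in grown-out cells. Of 9 measured TGF-beta targets, 8 were lower and 0 higher at 48 h (30% and 30.1% of all measured genes), and 3 lower and 6 higher in grown-out cells (29.5% and 33.6%). Ctgf was 1.73-fold and 2.14-fold lower, and Id1 3.17-fold lower at 48 h and 1.51-fold higher in grown-out cells. Hes1, the 1 measured gene of the 10 structural relatives of Bhlhe40 on the list, had 3.34, 1.71 and 2.11 RPKM, lower 1.95-fold (1.64 to 2.32) at 48 h and 1.58-fold (1.33 to 1.87) in grown-out cells. The part of these signals in the level of Bhlhe40 was not tested.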

How the data were processed

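Per the submitters' processing notes, the tools were TopHat 1.4.1 and Bowtie 0.12.8, bedtools 2.16.2 and CASAVA 1.8.2, with settings not given in the sources used here, and the build is listed as hg19 although the symbols are of mouse. Only 313 of 20043 models with a GRCm38 symbol start within 10 bp of that build, so coordinates are printed as in the files. The deposited estimated counts are reads per gene model, introns included where the counted length is the whole span. Nr1d1 was counted over 2627 of its 7308 bp, so its level compares less directly with those of the other members. Of the counts above 0, 47.3% to 48.5% were whole within 0.01 of a read. The deposited RPKM values are reads per model length and library total, per the file headers. A deposited column of signal, reads per base, served only to check the RPKM. Ratios used log2 of RPKM plus 0.05, and plain folds carry exact conditional binomial 95% intervals on rounded counts (Python 3.11.15, scipy 1.17.1). The intervals and calls were run on counts simulated with counting error alone. Such a run cannot speak to variation between cultures or to duplicate reads. Models with a repeated symbol or spanning over 3 Mb, 138 in all, were left out. No test was possible with 1 library per condition. Alternatives changed the pseudocount, expression minimum, interval and scaling (edgeR 4.0.16 and DESeq2 1.42.0). Members, lists and rules were chosen with earlier results of these data known. Named genes were all 10 members, up to 4 measured genes of each list with the largest log2 ratio against uninduced cells, and the 5 nearest in pattern to Bhlhe40, Nr1d1 and Per1. Creb1, Thra, Arl8b, Edem1 and the genes below the minimum were added to describe the lists and surroundings. Promoter sequences are from RefSeq. Some list genes are not reported here.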

Additional observations from a re-analysis of the deposited data

Results flagged for a closer look

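Of 61 measured genes looked at on the clock lists, 8 lay on opposite sides of the uninduced level in the 2 doxycycline libraries, each beyond counting error. With 1 library per condition these differences were not tested. The share of all measured genes that lay on opposite sides was not counted, so nothing about the clock lists is read from the 8. By the same interval, 30.1% of all measured genes were higher and 30% lower at 48 h, and 33.6% and 29.5% in grown-out cells. The log2 ratio of grown-out over 48 h cells was 0.63 for Nfil3, 0.78 for Fkbp5, 0.56 for Tspan4 and 0.18 for Prkaa1, which were lower at 48 h and higher in grown-out cells than in uninduced cells. It was -0.47 for Btrc, -0.35 for Fbxw11, -0.31 for Kdm5a and -0.17 for Sik2, which ran the other way. Fkbp5, a glucocorticoid target gene, had 1.86, 1.26 and 2.20 RPKM, given as uninduced, 48 h, grown out. None of the 7 measured clock members was among these genes.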

How the results depend on the processing

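No paired analysis was possible because each condition had 1 library. All 90 values of single members under a pseudocount of 0.5 RPKM, TMM scaling and DESeq2 size factors kept their direction and their side of the counting interval. For the pseudocount this was fixed in advance, since it can change neither the sign of a ratio nor the interval, which uses reads alone. The scaled library totals were close to the main ones, for example 41833975 reads by TMM against 41632296 in grown-out cells, so they could move little. At 48 h against uninduced, the count of members past 1.5-fold was 1 in place of 3 with a pseudocount of 0.5 RPKM, with a mean RPKM of at least 2 (3 members kept) and with a mean of at least 100 reads (8 members, chosen after seeing the data); the member left was Bhlhe40, since Bhlhe41 and Nr1d1 are low and rest on few reads. For grown-out against 48 h, the median log2 ratio of the members was 0.18, but 0.0605 over all 10 members with no minimum RPKM and -0.0248 with at least 100 reads, so its sign depends on which members are kept. For grown-out against uninduced cells the median was -0.25, but -0.15 with a pseudocount of 0.5 RPKM. Of the recomputed counts and medians, 34, that one included, stayed close. The counts among them were within 1.5 times the reported ones or stayed at 0. The medians kept their sign and lay within 0.1 on the log2 scale. The rest are those given above: 3 lower counts, 1 median that moved further and 1 that changed sign. Depth limits Bhlhe41, Nr1d1 and Per1, whose counts were at most 172 reads in any library, and no alternative covers variation between cultures.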

Other observations

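Prkaa2, which encodes the alpha 2 catalytic subunit of AMP-activated kinase, had 0.189, 0.325 and 0.0679 RPKM, given as uninduced, 48 h, grown out. It was 1.72-fold higher at 48 h than uninduced (1.57 to 1.88) and 2.78-fold lower in grown-out cells than uninduced (2.39 to 3.24). Grown-out cells were 4.79-fold below 48 h (4.15 to 5.53). The gene lies below the expression minimum and was chosen after its values were seen. Its relative Prkaa1 had 2.38, 2.24 and 2.55 RPKM. Rorb, a retinoic acid-related orphan receptor gene, had 0.170, 0.241 and 0.153 RPKM. Like Prkaa2, it lies below the expression minimum and was singled out after its values were seen. It was 1.42-fold higher at 48 h than uninduced (1.33 to 1.51) and 1.11-fold lower in grown-out cells (1.03 to 1.20).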
